A study of Homo sapiens with 4 samples.

Results

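MYC and its partners in the MAX network were examined in MDA-MB-231, a human cell line long used as a model of triple-negative breast cancer. The 9 genes are MYC, MAX, MXD1, MXD3, MXD4, MXI1, MNT, MLX and MYCBP. The members were all rows of the deposited RNA-seq table that carry one of these symbols, which gave 31 transcripts out of 43596 and 9 gene symbols out of 15113. The samples used here are mRNA libraries from cells treated for 24 h with DMSO, the solvent, or with 10 µM KH-3, with 2 libraries per condition. The methods of the study also name cells treated with 5 µM KH-3, whose libraries are not analysed here. KH-3 is a small molecule described by the study as an inhibitor of the RNA-binding protein HuR.

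For each transcript the table holds 1 measurement, a mean normalized read count that the authors averaged over libraries. The sources used here do not name the libraries averaged, and those of the 5 µM group may be among them, so each level is read as a pool over conditions. The levels below therefore describe which network transcripts the cultures held, not their response to KH-3, which is not analysed here. Since the table has no value per library, depth per library and the spread between replicates are unknown. No value can carry an error, no test was made, and differences between genes are given as ratios of the authors' means. The mRNA is that of a whole culture, so fewer cells with a transcript and less of it per cell cannot be told apart.

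Proteins of the MAX network carry a basic helix-loop-helix leucine zipper and bind DNA as dimers, with the E-box as their preferred site. MYC needs MAX as its dimer partner to activate transcription, and is a short-lived growth-promoting factor that is raised in many breast cancers. MXD1, MXD3, MXD4, MXI1 and MNT also dimerize with MAX, but recruit SIN3 and histone deacetylases and repress the same sites. MLX is the MAX-like partner of a parallel branch, in which it dimerizes with the glucose-responsive factors MLXIP and MLXIPL. MYCBP binds MYC and is no member of the helix-loop-helix family.

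Because the network proteins bind the E-box, the promoters of the genes themselves were searched for its canonical form, CACGTG, which reads the same on both strands. RefSeq promoter windows of GRCh38.p14, from 250 bases before a transcription start to 50 after it, were found for 8 of the 9 genes, not for MYC. The motif was present in 3 of these 8 genes, namely MLX, MNT and MXD4, once in each. It was absent from all windows of MAX, MXD1, MXD3, MXI1 and MYCBP. Among all windows 7.26% held it, and among the 10146 genes of the table with a window 12.4% did. The 3 matches are shown with up to 25 bases on each side, fewer where the window ended, 5′ to 3′ on the strand of the gene and with the motif in capitals:

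MLX: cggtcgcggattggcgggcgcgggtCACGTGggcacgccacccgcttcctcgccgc

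MNT: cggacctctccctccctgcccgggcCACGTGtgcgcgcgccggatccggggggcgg

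MXD4: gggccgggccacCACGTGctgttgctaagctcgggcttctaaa

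The MLX stretch lies at chr17:42567025-42567080 on the plus strand, and its motif starts 50 bases before the transcription start. The MNT stretch lies at chr17:2401223-2401278 on the minus strand, with the motif 193 bases before the start. The MXD4 stretch lies at chr4:2262317-2262359 on the minus strand, with the motif 238 bases before the start. A match is a string of letters and does not show that a factor is bound there. In the RNA, described next, MLX and MXD4 followed directly after MYC in level, and MNT stood below MAX, so the genes with a match were not of like level.

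To compare genes, the mean read count of each transcript was divided by its length in the table, and these values were summed over the listed transcripts of a gene. The level is thus in mean normalized reads per kilobase. MYC stood first at 1141 per kilobase, followed by MLX at 561, MXD4 at 297, MYCBP at 126 and MAX at 109. The lower places were held by MNT at 96.9, MXI1 at 92.8, MXD3 at 66.6 and MXD1 at 59.2. MYC alone made up 44.8% of the summed level of the 9 genes. Among all 15113 genes MYC had rank 980 and lay at percentile 93.5, whereas MXD1, the lowest, had rank 9358 and lay at percentile 38.1. The median gene of the table had 108 per kilobase, so 5 network genes lay above the median and 4 below it, with MAX almost on it at percentile 50.1. Of the 15113 genes 12120 had a protein-coding transcript, as all 9 network genes did. The ranks, percentiles and median are over genes with and without one.

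**Figure D1:**
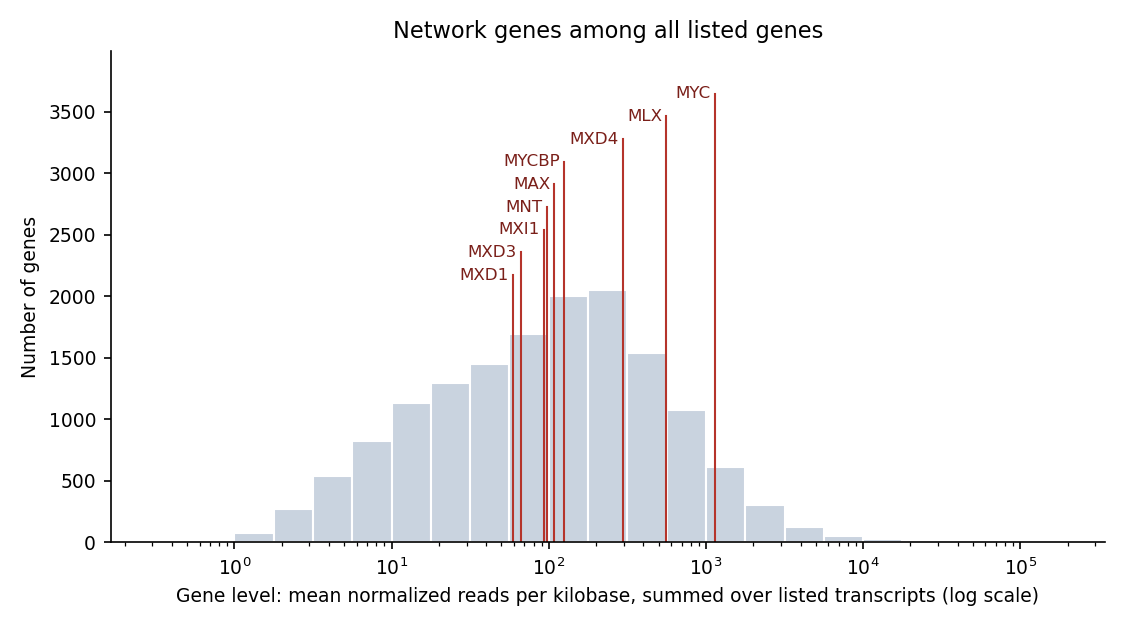
Number of listed genes by level, in mean normalized reads per kilobase summed over listed transcripts (log scale), with a red line for each of the 9 network genes. MYC (1141), MLX (561) and MXD4 (297) stand to the right, and the other 6 genes lie close together between 59.2 and 126.

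Neighbours in this order were separated by unequal steps. MYC was 2.03 times as high as MLX, MLX was 1.89 times as high as MXD4, and MXD4 was 2.36 times as high as MYCBP. Below MYCBP the ratios were 1.16 to MAX, 1.12 from MAX to MNT, 1.04 from MNT to MXI1, 1.39 from MXI1 to MXD3 and 1.13 from MXD3 to MXD1. With protein-coding transcripts alone the ratio of MYC to MLX was 3.34, that of MXD4 to MYCBP was 1.42 and that of MAX to MNT was 1.89. With the highest transcript of each gene alone, MLX to MXD4 was 1.11, MXD4 to MYCBP was 1.42 and MYCBP to MAX was 1.88, so the sizes of the steps depended on which transcripts were summed. Whether neighbours differ beyond the spread between libraries cannot be said from a pooled mean. The first 4 places stayed the same in all 5 alternative ways of computing the level. The order of MNT, MXI1, MXD3 and MXD1 did not, and MAX fell from place 5 to place 8 when read counts were not divided by length.

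**Figure D2:**
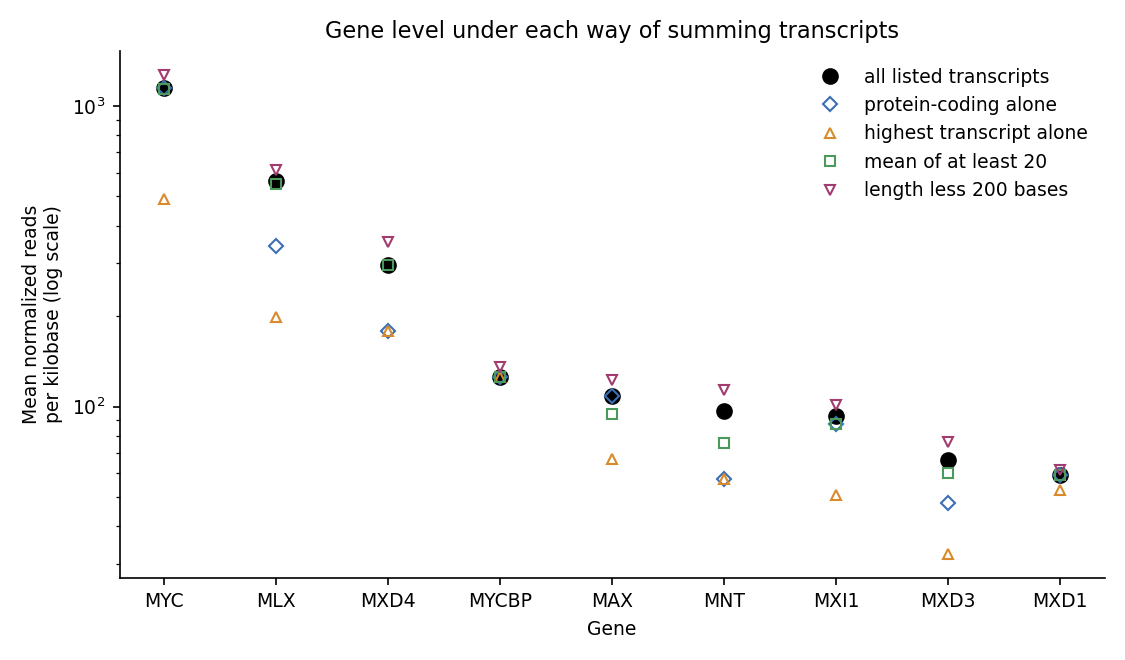
Level of each network gene in mean normalized reads per kilobase (log scale) with all listed transcripts (black circles) and under 4 alternatives (open symbols). MYC, MLX, MXD4 and MYCBP keep their order under every symbol, MAX stays next below them, and the 4 lowest genes change places under some symbols.

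MYC, the activator of the network, had 5 listed transcripts, all protein-coding (ENSG00000136997.16). MYC-004 had a mean normalized read count of 1055, the highest of the 31 network transcripts, and rank 2426 among all transcripts. MYC-006 had 587, MYC-001 had 450, MYC-201 had 280 and MYC-002 had 10.6. The first 4 together held 99.6% of the reads of the gene, and MYC-002 the remainder. The highest transcript held 44.3% of the reads, less than the median of 55.1% over the 1395 genes that also had 5 listed transcripts. In GENCODE release 44, MYC-004 codes for 453 residues, MYC-001 for 454 and MYC-006 for 439, and neither MYC-004 nor MYC-006 has a base outside the other listed transcripts found there. MYC-201 was not found in that release and MYC-001 has another length in it, so how the MYC reads divide between its transcripts rests on the estimate made by the authors, and the sum is the firmer value.

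MAX, the dimer partner that MYC and the MXD proteins share, spans chr14:65006174-65102695 on the minus strand (ENSG00000125952.18). The table lists 3 of the 19 MAX transcripts annotated in GENCODE release 44, all protein-coding and all of the same length in both releases. MAX-001 had a mean normalized read count of 132, MAX-004 of 87.4 and MAX-005 of 12.8. Per kilobase MAX-001 stood at 66.8 and MAX-004 at 27.7, a ratio of 2.41. MAX-001 codes for 151 residues, MAX-004 for 134 and MAX-005 for 96, so the reads were assigned to 3 forms with different coding lengths. These transcripts can be told apart in part, since 1249 bases of MAX-004 and 561 bases of MAX-005 lie in no other listed MAX transcript, but 78 bases of MAX-001 alone do so.

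The MYC level was 10.5 times the MAX level per kilobase. MAX was also below the summed level of the repressors, since MXD1, MXD3, MXD4, MXI1 and MNT together had 612 per kilobase, 5.63 times the MAX level. MYC and these 5 repressors together had 16.1 times the level of MAX. MYC alone was 1.86 times the sum of the 5 repressors. The sum of the repressors includes transcripts that do not code for protein, while MYC and MAX have none. With protein-coding transcripts alone the repressors had 431 per kilobase, 3.96 times the MAX level, and MYC was 2.65 times their sum. With the highest transcript of each gene alone, MYC was 7.35 times MAX and 1.32 times the repressors. These are ratios of mRNA. Amounts of protein, and which proteins pair with which, are not measured here. The ratios therefore do not show that MAX was in short supply.

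**Figure D3:**
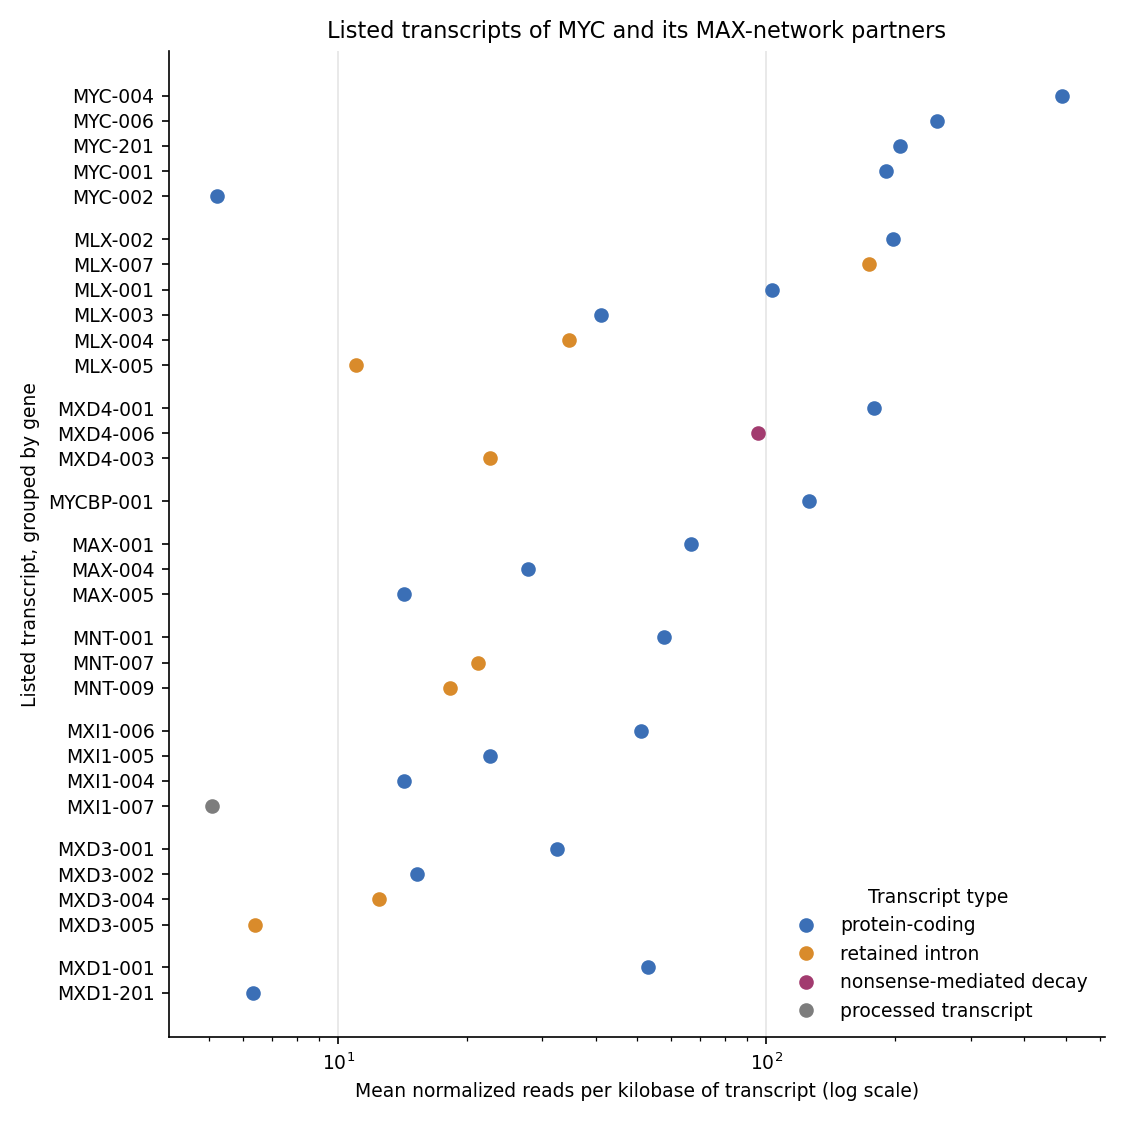
Mean normalized reads per kilobase (log scale) of the 31 listed transcripts, grouped by gene and coloured by transcript type. MYC-004 is the highest at 491, and in each gene the highest point is a protein-coding transcript.

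MXD4, an MXD repressor linked to differentiating cells, was the highest of the repressors. It spans chr4:2247432-2262109 on the minus strand (ENSG00000123933.16). Its level of 297 per kilobase was 48.5% of the sum of the 5 repressors and 1.36 times that of MXD1, MXD3 and MXI1 together. The protein-coding MXD4-001, which codes for 209 residues in GENCODE release 44, had a mean normalized read count of 723 and held 82.3% of the reads. The retained-intron transcript MXD4-003 had 95.7. MXD4-006, a short transcript of 624 bases annotated as a substrate of nonsense-mediated decay, had 59.7, which is 6.80% of the reads but 32.3% of the level per kilobase. Without the transcripts that do not code for protein the MXD4 level was 178 per kilobase, and the comparison with MXD1, MXD3 and MXI1 together turned, at a ratio of 0.916.

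MNT, the repressor that is found in most proliferating cells, spans chr17:2384073-2401104 on the minus strand (ENSG00000070444.14). Its protein-coding MNT-001 had a mean normalized read count of 287, or 82.2% of the reads, and codes for 582 residues. The retained-intron transcripts MNT-009 and MNT-007 had 51.2 and 11.2. With MNT-001 alone the MNT level was 57.5 per kilobase. MNT-009 is a single exon of 2813 bases that shares no base with the other 2. A gene of the opposite strand, ENSG00000262456, shares 1065 of the exonic bases of the listed MNT transcripts. Whether strand was used in the counting is not stated in the sources used here.

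MXI1, an MXD-type repressor, spans chr10:110207605-110287365 on the plus strand (ENSG00000119950.20). Of its 38 annotated transcripts 4 were listed. MXI1-006, which starts at base 110225993, had a mean normalized read count of 123. MXI1-005 starts at base 110210231 and had 49.6, and MXI1-004 starts at base 110207605 and had 49.4. The coding transcript of the most downstream of these starts thus held 52.2% of the MXI1 reads, 2.49 times as many as MXI1-005. The proteins of these forms have 228, 182 and 295 residues. Unlike those of MYC, each has sequence of its own, with 291, 85 and 1227 bases found in no other listed MXI1 transcript. The fourth, MXI1-007, is a processed transcript with 13.9.

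MXD1, a repressor also known as MAD1, spans chr2:69897688-69942945 on the plus strand (ENSG00000059728.10). MXD1-001 had a mean normalized read count of 295 and MXD1-201 had 35.3, a ratio of 8.37. They code for 221 and 211 residues. In GENCODE release 44 only 37 bases of MXD1-001 and 68 of MXD1-201 lie in no other listed MXD1 transcript. By that release the ratio rests on few bases. MXD1-001 has another length there, 5549 bases, so the bases that set the 2 forms apart in the authors' counting may differ. MXD1 had more reads than MAX, 331 against 232, but its transcripts are 5587 and 5580 bases long and per kilobase it was the lowest of the 9 genes, at 0.545 of the MAX level.

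MXD3, the repressor linked to S phase, had the fewest reads, 109 over 4 transcripts. It spans chr5:177301461-177312757 on the minus strand (ENSG00000213347.10). MXD3-001 had a mean normalized read count of 48.1, MXD3-002 of 23.5, and the retained-intron transcripts MXD3-004 and MXD3-005 had 23.1 and 14.6. No MXD3 transcript therefore held most of the reads. MXD3-005 runs on into the neighbouring gene RAB24, with which it shares 926 exonic bases on the same strand. RAB24 itself was listed with 64.3 reads. On the opposite strand PRELID1, a gene of mitochondrial lipid transport, shares 133 exonic bases with MXD3 and was listed with 1142 reads. Here too, whether strand was used in the counting is not stated.

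MLX, the centre of the parallel branch, spans chr17:42567072-42573239 on the plus strand (ENSG00000108788.11). It had the most listed transcripts, 6, of which 3 were protein-coding and 3 retained-intron forms. MLX-002 had a mean normalized read count of 481, MLX-001 of 266 and MLX-003 of 95.9, and they code for 244, 298 and 214 residues. The retained-intron transcript MLX-007 had 401, the second highest of the gene, while MLX-004 had 87.9 and MLX-005 had 11.7. With the protein-coding transcripts alone the MLX level was 342 per kilobase in place of 561. On the opposite strand PSMC3IP, a recombination gene listed with 400 reads, shares 775 of the exonic bases of the listed MLX transcripts, or 20.2%. Since use of strand in the counting is not stated, the MLX level may include reads of PSMC3IP.

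Retained-intron forms were the main kind of transcript beside the coding ones. Of the 31 transcripts 21 were protein-coding, 8 retained-intron, 1 a decay substrate and 1 a processed transcript. MYC, MAX, MXD1 and MYCBP had protein-coding transcripts alone. In MLX retained-intron forms held 37.3% of the reads, in MXD3 34.5%, in MNT 17.8% and in MXD4 10.9%. The median over the 12120 genes with a protein-coding transcript was 0%, and 93.9% of these genes had a lower share than MLX, 93.2% a lower share than MXD3, 88.0% a lower share than MNT and 83.8% a lower share than MXD4. Reads of unspliced RNA and of these annotated forms cannot be told apart in the table. The 12120 genes were not matched for the number of listed transcripts, which was 6 in MLX, 4 in MXD3 and 3 in MNT and MXD4. A gene with 1 listed transcript, a protein-coding one, can only have a share of 0%, so these percentages also depend on transcript number. Per kilobase the order of the 4 genes differed. Protein-coding forms held 59.4% of the level in MNT, 61.0% in MLX and 71.7% in MXD3, and retained-intron forms the rest. In MXD4 the retained-intron form held 7.63%. MNT thus had the largest share per kilobase, and MNT-007, with 528 bases and a mean of 11.2, gave 21.9% of its level.

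**Figure D4:**
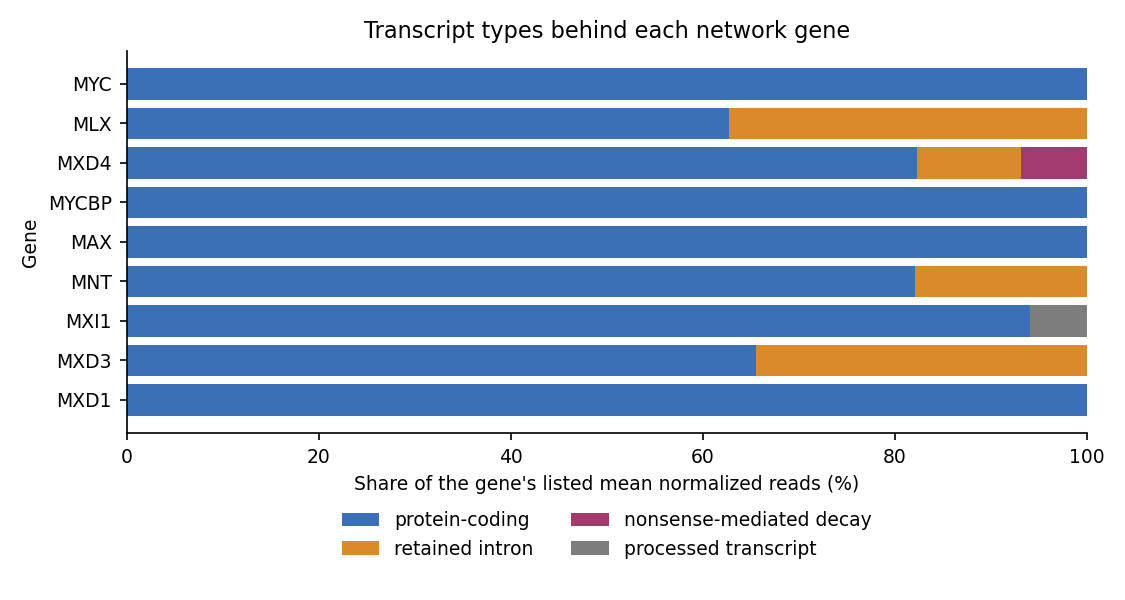
Share of the listed mean normalized reads of each network gene by transcript type, in percent, with genes ordered by level. Retained-intron forms (orange) make up 37.3% of MLX and 34.5% of MXD3, and none of MYC, MYCBP, MAX, MXI1 or MXD1.

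MYCBP, which binds the amino-terminal part of MYC, had 1 listed transcript with a mean normalized read count of 355. It spans chr1:38862493-38873368 on the minus strand (ENSG00000214114.8), and the transcript codes for 103 residues. At 126 per kilobase its level was 1.16 times that of MAX. Its exons share 466 bases on the same strand with the protein-coding ENSG00000274944 and 330 bases with the lncRNA ENSG00000273637.

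Of the 5 other network factors MLXIP, MGA and MYCL were listed, and MYCN and MLXIPL were not. MLXIP, a glucose-responsive partner of MLX, had 188 per kilobase, and MGA, a large MAX-binding repressor, had 87.6. MYCL, a paralog of MYC, had 5.69, so MYC was 201 times as high. The lowest mean the table lists is 7.34 reads for a transcript, and a gene without a row may have had reads below that.

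The 5 corepressor genes were all listed and all above MAX, and HDAC1 and HDAC2 were also above MYC. HDAC1, a histone deacetylase, was the highest at 1555 per kilobase and NCOR1, a nuclear corepressor, the lowest at 259. All 8 cofactors of MYC were listed, 6 above MAX, from RUVBL1, an ATPase of chromatin remodelling complexes, at 1277 to KAT5, an acetyltransferase, at 89.9. The 7 genes of MYC turnover and modification were listed as well, 4 above MAX. They ran from HUWE1, a ubiquitin ligase, at 453 to AURKA, a mitotic kinase that stabilizes MYC proteins, at 72.2. None of these 7 was as high as MYC. For these counts, MAX lies almost on the median of all listed genes, at percentile 50.1, and MYC at percentile 93.5.

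Of the 9 genes known as targets of MYC or MLX, all were listed, 7 lay above MAX and 3 above MYC. Among all genes MAX is at percentile 50.1 and MYC at percentile 93.5. NPM1, a nucleolar chaperone of ribosome assembly, was the highest at 19065 per kilobase. ARRDC4, a glucose-responsive arrestin-domain gene, was the lowest at 82.0. Their median was 949, against 108 for all genes, with or without a protein-coding transcript. A pooled level says nothing of their dependence on MYC. The promoter windows of 5 of these 9 genes held CACGTG, against 12.4% of the genes of the table with a window. Since the list was picked from genes already known as targets, this share is a description and tests nothing. In the other lists it was found in 2 of 6 cofactors with a window, 1 of 5 turnover genes, 0 of 5 corepressors and 0 of 5 other network factors.

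The identity of the cultures was checked by marker genes. All 5 markers of the line were listed, from VIM at 10135 per kilobase to CD44 at 427. Of the 4 genes that the line should lack or hold at a low level, ESR1, PGR and CDH1 had no row and EPCAM had 43.3. Of the markers of other cell types PTPRC and KRT14 had no row and PECAM1 had 4.08.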

How the data were processed

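The samples used here are 2 DMSO and 2 KH-3 (10 µM) libraries. A 5 µM group named in the methods is not analysed here. The authors used STAR for alignment to GENCODE release 24 (hg38), eXpress for abundance per transcript, and DESeq2 for normalization and comparison. Versions are not given in the sources used here. The deposited table gives, for each transcript, a mean normalized read count, a signal averaged by the authors over libraries that are not named. Its 3 other value columns hold the authors' own log2 fold change, p-value and q-value, and were not used. The table has no column per library, so depth and precision are unknown. Genes were described by the sum of 1000 × mean / length over listed transcripts, with no test, and again with 5 alternative settings. Transcripts were looked up without version in GENCODE release 44. Of the 31, 30 were found, 22 with the same length, and positions, exons and coding lengths are those of release 44. Gene members and lists were chosen with earlier results of these data known. Named are the 9 genes, their transcripts with at least 10% of the reads of the gene, and the highest and lowest gene of each list. Transcripts below 10% are given for completeness, outside this rule. Other list genes were named after their values were seen, namely MGA, HDAC2, those without a row and those in the marker lists. The code of the sums was checked on simulated data built with the same formula. That check does not bear on how reads were assigned to transcripts. Python 3.11.15, numpy 2.4.6, pandas 2.3.3 and matplotlib 3.10.9 were used.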

Additional observations from a re-analysis of the deposited data

How the results depend on the processing

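No paired analysis was possible because the table has no value per library, and for the same reason no library could be left out. The median level of the 9 genes was 109 reads per kilobase. It was 66.8 with the highest transcript of each gene alone, 94.5 with transcripts of a mean of at least 20 alone, 122 with 200 bases taken off each length, and the same with protein-coding transcripts alone, since MAX, the gene at the median, has no other kind. That setting took MNT to 59.4%, MXD4 to 60.1%, MLX to 61.0% and MXD3 to 71.7% of their levels, and MXD4 over MXD1, MXD3 and MXI1 together from 1.36 to 0.916. Of the 9 genes, 5 kept their place in the order with protein-coding transcripts alone and 5 with no division by length, 6 with the highest transcript alone, 7 with the minimum of 20 and 9 with the shorter lengths. The MYC level ranged from 43.0% to 111% of its value over the 4 alternatives per length, that of MLX from 35.3% to 109%, and that of MYCBP, with 1 transcript, from 100% to 108%. Transcripts with a mean under 7.34 are not listed, so levels of genes with many rare forms may be too low by an unknown margin. Exons shared with other genes could add reads to a level, which none of the alternatives addresses.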
